A study of Mus musculus with 4 samples.

Results

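Binding of the glucocorticoid receptor (GR) around the 4 genes of the TSC22 domain family (Tsc22d1, Tsc22d2, Tsc22d3 and Tsc22d4) was taken from chromatin immunoprecipitation and sequencing (ChIP-seq) peak lists. The study asked how corticosterone, the main glucocorticoid of the mouse, alters where GR binds in 33AP1C9 cells. This line, a derivative of mammary C127 cells per the labels, carries integrated copies of an MMTV-pp7 reporter, in which the promoter of mouse mammary tumour virus responds to hormone, and expresses the PP7 coat protein tagged with GFP, and all groups share these traits. The groups were untreated cells, cells given 600 nM corticosterone for 1 h and cells given 600 nM corticosterone for 12 h, all after growth in serum stripped with charcoal and dextran. Each condition had 1 library, so no test across conditions was possible, and differences between libraries carry no replicate check. The libraries held 79203826 tags (untreated), 90556119 tags (1 h) and 97749688 tags (12 h), a tag being 1 aligned read as the peak caller counted it.

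A site was assigned to a member when the centre of its peak lay in the gene span (RefSeq, GRCm38, the assembly of mm10) or within 100 kb of it. By this rule the family had 9 of the 2883 sites listed at 12 h, 10 of the 5638 sites listed at 1 h and 0 of the 1 site listed in untreated cells. Tsc22d3 had 8 sites at 12 h and 9 at 1 h, Tsc22d4 had 1 at each time, and Tsc22d1 and Tsc22d2 had none. Thus 2 of the 4 members had a site at both times of treatment. Among 21887 protein-coding genes, 22.3% had a site within 100 kb at 12 h and 37.4% at 1 h.

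TSC22 family proteins share a conserved leucine zipper region through which they form dimers. Tsc22d3 encodes GILZ, the glucocorticoid-induced leucine zipper protein, which carries part of the anti-inflammatory action of glucocorticoids by binding factors such as NF-kappaB and AP-1. GR, once bound by hormone, binds DNA as a dimer at glucocorticoid response elements, which are inverted repeats of a short hexamer, often at enhancers far from the start site of the regulated gene. Tsc22d1 was first described as a gene stimulated by TGF-beta, and Tsc22d4 has been linked to metabolic control in mouse liver.

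Tsc22d3 is transcribed from the minus strand of chromosome X (140539528 to 140600522, a span of 61.0 kb) and has 3 annotated start sites in the RefSeq promoter table. The windows from 250 bases before to 50 bases after each start, from RefSeq on GRCm38.p6, are shown because the distances of the intragenic sites are counted from the most 3′ one and because no listed peak overlapped any of them. Capitals mark the hexamer AGAACA or its reverse complement. The first is the most 3′ start site (chrX:140542619-140542918), the second lies between (chrX:140548522-140548821) and the third is at the 5′ end of the span (chrX:140600473-140600772), all on the minus strand and written 5′ to 3′.
most 3′ start: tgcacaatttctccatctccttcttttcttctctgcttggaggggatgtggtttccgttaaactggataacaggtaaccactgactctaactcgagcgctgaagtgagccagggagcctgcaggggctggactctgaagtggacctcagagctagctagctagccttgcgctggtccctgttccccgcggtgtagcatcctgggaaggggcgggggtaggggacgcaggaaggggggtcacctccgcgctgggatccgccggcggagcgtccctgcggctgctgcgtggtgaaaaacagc
middle start: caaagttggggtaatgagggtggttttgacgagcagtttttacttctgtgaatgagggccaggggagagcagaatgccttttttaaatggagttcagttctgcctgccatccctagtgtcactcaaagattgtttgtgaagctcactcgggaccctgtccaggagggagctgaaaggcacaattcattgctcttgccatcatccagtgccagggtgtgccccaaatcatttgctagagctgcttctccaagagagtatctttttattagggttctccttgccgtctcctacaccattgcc
most 5′ start: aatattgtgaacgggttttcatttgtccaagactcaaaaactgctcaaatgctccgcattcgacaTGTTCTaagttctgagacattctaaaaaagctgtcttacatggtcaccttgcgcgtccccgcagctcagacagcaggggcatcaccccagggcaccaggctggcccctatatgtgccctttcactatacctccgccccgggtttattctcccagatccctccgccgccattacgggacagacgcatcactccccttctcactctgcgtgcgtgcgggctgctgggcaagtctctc

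The hexamer was present in 1 of these 3 windows, beginning 185 bases before the most 5′ start site. The whole palindrome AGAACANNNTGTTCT, which contains the hexamer on both strands, was in none of the 3. For comparison, the hexamer on either strand was in 19.0% of the 32851 promoter windows of the table and the palindrome in 0.00913%. A match is a description of the letters and no match says only that these letters are not in the window. The table also holds 5 start sites of Tsc22d1, and 1 of those windows had the hexamer. Over both genes, 0 of the 8 windows overlapped a listed peak. The closest listed site to any Tsc22d3 start was 4.78 kb away at 12 h and 4.79 kb away at 1 h, on the downstream side of the most 3′ start.

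Most GR signal at Tsc22d3 lay beyond the 3′ end of the gene. Of its sites, 7 of 8 at 12 h and 7 of 9 at 1 h were there, between 1.65 and 33.5 kb past the end of the span, and the remainder lay inside the span. Tags are given as the deposited normalised tag count, which is scaled to a library of 10000000 tags, and called normalised tags. For the untreated library the tags in the same 1 h window were scaled the same way.

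**Figure D1:**
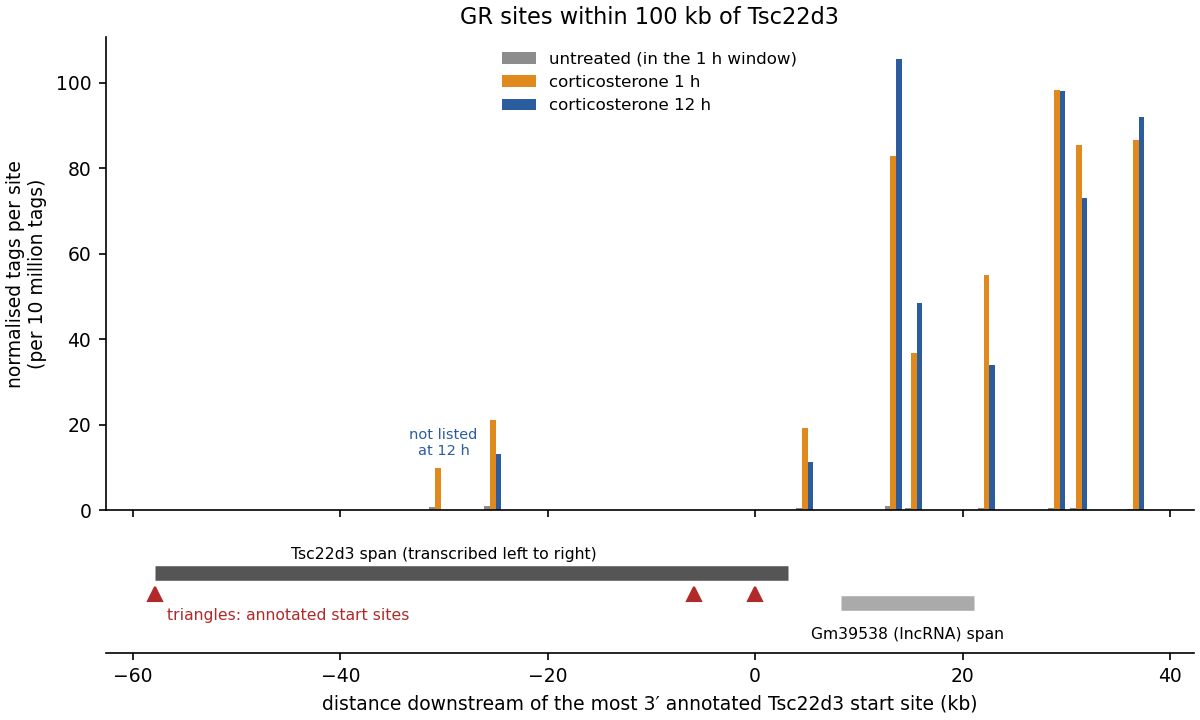
GR sites within 100 kb of Tsc22d3, with the distance downstream of the most 3′ annotated start site on the x axis (kb) and normalised tags per site on the y axis, 1 library per bar; the bars of a site are set side by side, and the lower panel draws the spans of Tsc22d3 and of the long non-coding RNA Gm39538. The tall bars stand beyond the 3′ end of the gene, up to 105.5 tags at 12 h and 98.4 at 1 h, while the untreated bars reach at most 1.14.

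The outermost site (chrX:140505853-140506135), 33.5 kb past the end of the gene, held 0.253 normalised tags in untreated cells, 86.6 at 1 h and 92.1 at 12 h. Both treated libraries were far above the untreated one there, which had 2 raw tags against 784 raw tags at 1 h and 900 at 12 h. This site is 29.9 kb from Prps1, which encodes an enzyme of nucleotide synthesis, and so is slightly nearer to that gene than to Tsc22d3. For each of the other 8 sites Tsc22d3 was the nearest protein-coding gene. Prps1, on the other side of the cluster, has the same sites within 100 kb, so the assignment by distance does not separate these genes. Frmpd3, beyond Prps1, and Mid2, beyond the 5′ end of Tsc22d3, are protein-coding genes that each have some of these sites within 100 kb.

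A pair of sites 2.07 kb apart followed. The one 28.0 kb past the gene end (chrX:140511338-140511620) held 0.631 normalised tags in untreated cells, 85.4 at 1 h and 73.1 at 12 h. Its neighbour 26.0 kb past the end (chrX:140513412-140513694) held 0.505 in untreated cells, 98.4 at 1 h and 98.2 at 12 h. This neighbour had the most tags of the locus at 1 h, where it ranked 241 of 5638, and it was level between the treated libraries.

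Further towards the gene, the site 19.2 kb past the end (chrX:140520202-140520484) held 0.631 normalised tags in untreated cells, 55.0 at 1 h and 34.0 at 12 h. A second close pair, 1.96 kb apart, lay inside the span of Gm39538, a long non-coding RNA gene (140521565 to 140534432). Of this pair, the site 12.2 kb past the end of Tsc22d3 (chrX:140527237-140527519) held 0.505 normalised tags in untreated cells, 36.9 at 1 h and 48.6 at 12 h. The site 10.2 kb past the end (chrX:140529198-140529480) held 1.14 in untreated cells, 82.9 at 1 h and 105.5 at 12 h. It had the most tags of the locus at 12 h and ranked 80 of 2883 in that list. Both sites of this pair were higher at 12 h than at 1 h.

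The 3 weakest sites were those nearest to or inside the gene. The site 1.65 kb past the 3′ end (chrX:140537736-140538018) held 0.631 normalised tags in untreated cells, 19.3 at 1 h and 11.4 at 12 h. Inside the span, 25.3 kb upstream of the most 3′ start site, the site at chrX:140567795-140568077 held 1.01 in untreated cells, 21.1 at 1 h and 13.1 at 12 h. The other intragenic site (chrX:140573099-140573381), 30.6 kb upstream of that start, held 0.884 normalised tags in untreated cells and 10.0 at 1 h and was not listed at 12 h. These sites lay near or below the middle of the lists, in which the median site held 18.0 normalised tags at 12 h and 18.3 at 1 h.

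The one family site listed at 1 h alone stood close to the caller's minimum. It held 91 raw tags at 1 h, against a tag threshold of 75, with a fold of 9.68 over the surrounding 10 kb, for which the minimum was 6. A count of 75 tags in the 12 h library corresponds to 7.67 normalised tags, a log2 ratio of -0.38 from the 1 h value. Listed counts were not strictly bounded by it, since the lowest site of the 12 h list held 6.96 normalised tags. The margin is therefore approximate. Of the 654 sites with 9 to 11 normalised tags at 1 h, 15.1% were also listed at 12 h. Absence from the 12 h list therefore does not show that binding was lost at this site.

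The remaining 9 family sites, 8 at Tsc22d3 and 1 at Tsc22d4, were listed at both times, with peaks that overlapped by at least 1 bp. In the whole series 84.5% of 12 h sites were also listed at 1 h and 43.2% of 1 h sites were also listed at 12 h, and 66.3% of the 2646 sites that held at least 19.3 normalised tags at 1 h, the level of the weakest such Tsc22d3 site. Peak centres at the Tsc22d3 sites moved between the lists by 2 to 17 bp, except at the site 12.2 kb past the gene end, where the 12 h centre lay 49 bp closer to the gene. A shift of at least that size occurred at 18.0% of the 2436 paired sites of the series, whose median shift was 19 bp.

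Ratios between the treated libraries differed from site to site within the locus. They are given as the log2 ratio of normalised tags, 12 h over 1 h, each followed by its 95% interval, an exact Clopper-Pearson interval built on the raw tags. Without molecular identifiers, tags cannot be traced to single molecules, so the interval holds counting error alone, and it compares these libraries rather than the conditions. A ratio is called higher or lower where its interval excludes 0. Of the 8 paired Tsc22d3 sites 2 were higher at 12 h, 4 were lower and 2 had an interval that held 0. Over all 2436 paired sites of the series, 11.5% were higher and 61.8% were lower by the same rule, and the median log2 ratio was -0.49.

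**Figure D2:**
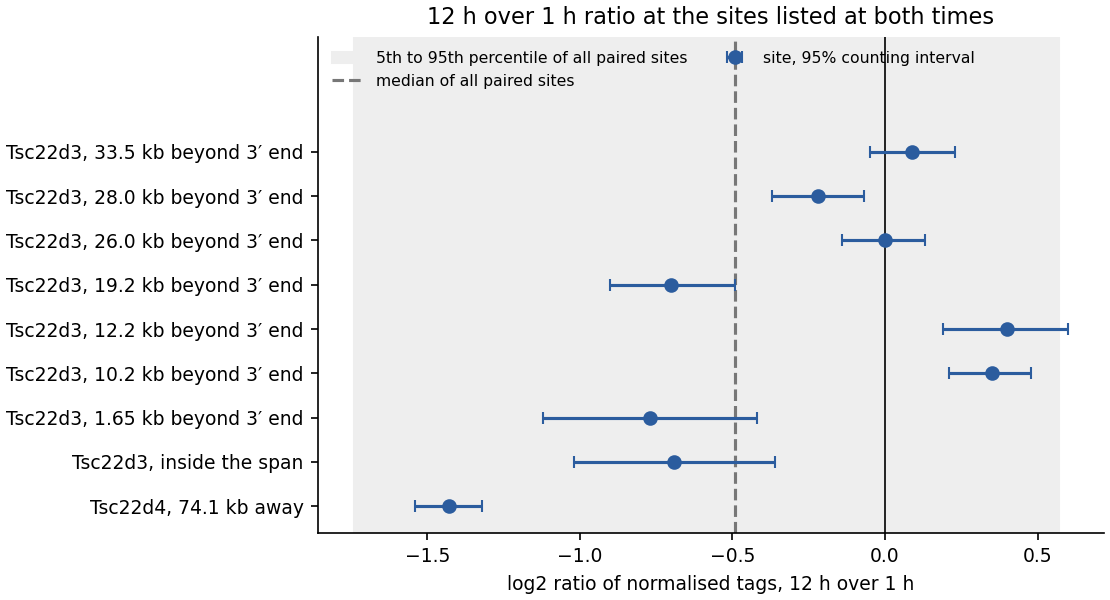
Log2 ratio of normalised tags, 12 h over 1 h (x axis), at the 9 family sites listed at both times (rows), with points for the sites, bars for the 95% counting interval, a dashed line at the median of all paired sites (-0.49) and shading from their 5th to 95th percentile (-1.74 to 0.57). Tsc22d3 sites range from -0.77 to 0.40 and the Tsc22d4 site stands at -1.43.

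The sites inside Gm39538 were the higher ones, with log2 ratios of 0.40 (0.19 to 0.60) at 12.2 kb and 0.35 (0.21 to 0.48) at 10.2 kb past the gene end. They stood at the 91.6th and 90.2nd percentile of all paired sites. The lower ones were the site at 28.0 kb, with -0.22 (-0.37 to -0.07), the site at 19.2 kb, with -0.70 (-0.90 to -0.49), the site at 1.65 kb, with -0.77 (-1.12 to -0.42), and the intragenic site, with -0.69 (-1.02 to -0.36). The sites at 33.5 kb and 26.0 kb had ratios of 0.09 (-0.05 to 0.23) and 0.00 (-0.14 to 0.13). The site at 19.2 kb lay 7.04 kb from the nearer of the higher sites, and their intervals did not overlap. Relative to the series median of -0.49, the 5 sites at 33.5, 28.0, 26.0, 12.2 and 10.2 kb were higher and none was lower, while the intervals of the other 3 held the median. On that scale the site at 28.0 kb changed direction, to 0.27. By construction 1218 of the 2436 paired sites of the series stood above the median. How many of their intervals excluded it is not given here.

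Summed over the locus, the ratio between the treated libraries depended on the scaling. The 7 sites beyond the 3′ end together held 463 normalised tags at 12 h and 464 at 1 h (a log2 ratio of -0.01, -0.07 to 0.06). All 8 paired Tsc22d3 sites held 476 at 12 h and 486 at 1 h (-0.03, -0.09 to 0.03), and the interval of this sum held 0. After division by the window width, which was 302 bp at 12 h and 282 bp at 1 h, the same sum gave -0.13 (-0.19 to -0.07), an interval below 0. Centred on the median of all paired sites it gave 0.47 (0.41 to 0.53), an interval above 0. Over all paired sites of the series the summed log2 ratio was -0.57. The division of tags among the sites of the locus differed between the libraries. Shares are of the tags summed over all listed Tsc22d3 sites, 8 at 12 h and 9 at 1 h. The site at 10.2 kb held 22.2% at 12 h and 16.7% at 1 h, whereas the site at 19.2 kb held 7.14% at 12 h and 11.1% at 1 h.

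The Tsc22d3 sites formed the largest cluster of either list when neighbours at most 10 kb apart were joined, a distance set with the data in view and equal to that of the caller's local region. The 7 sites beyond the 3′ end fell in 1 cluster of 31.9 kb at both times. In the 12 h list 87.5% of sites had no neighbour within that distance, and 82.8% in the 1 h list. No other cluster held more than 4 sites at 12 h or 5 sites at 1 h. With neighbours joined up to 20 kb the Tsc22d3 cluster again held 7 sites. The next largest then held 5 sites at 12 h, while at 1 h 3 clusters, itself included, held 7 or more, the largest of them 9.

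**Figure D3:**
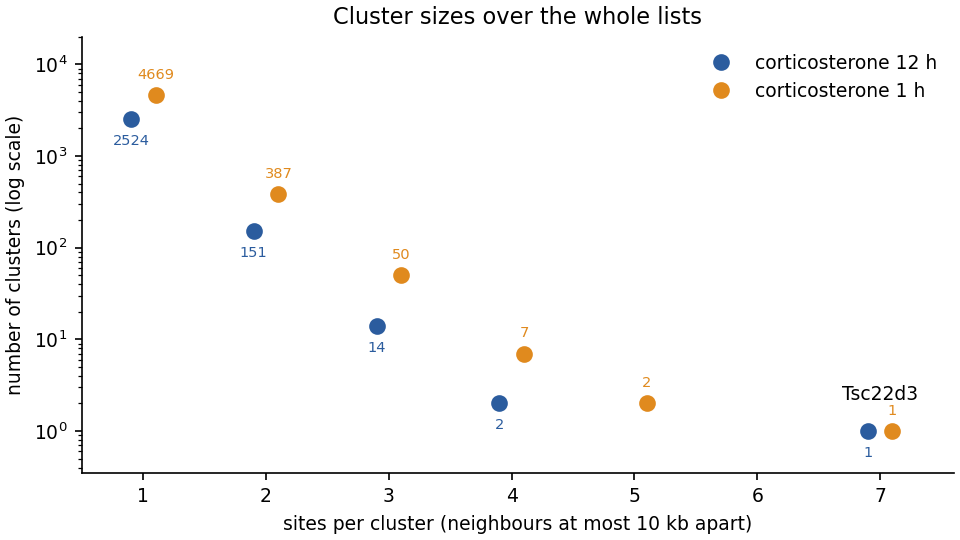
Number of clusters (y axis, log scale) against the number of sites in a cluster (x axis) for the 12 h and the 1 h list, with neighbours at most 10 kb apart joined and the number of clusters printed beside each point. The cluster of 7 sites at Tsc22d3 stands alone at the right in both lists, against at most 4 sites elsewhere at 12 h and 5 at 1 h.

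The fold over the local region, a deposited value of the caller that compares a peak with the surrounding 10 kb, ranged from 9.81 to 49.24 at 12 h and from 9.34 to 48.25 at 1 h at the Tsc22d3 sites. The outermost site had the highest value of the locus at both times. Of the pair inside Gm39538, the site at 12.2 kb had 9.87 at 12 h and 9.34 at 1 h, and the site at 10.2 kb had 34.24 at 12 h and 31.72 at 1 h. These sites lie 1.96 kb apart, so each falls in the local region of the other. How far neighbouring sites lower this fold was not tested. The list medians were 10.6 at 12 h and 11.5 at 1 h. The focus ratio is a fraction that the caller gives for each peak. It was 0.812 to 0.957 at 12 h and 0.797 to 0.925 at 1 h at these sites. Most of them stood above the list medians of 0.838 at 12 h and 0.841 at 1 h.

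Signal in untreated cells was low at every Tsc22d3 site. The untreated library held 2 to 9 raw tags in the windows, against 11.6 expected in a 12 h window and 10.8 in a 1 h window from the caller's average per base. Sites on chromosome X in general had fewer untreated tags, with a median of 7 on X at both times, against 12 at 12 h and 11 at 1 h on the other chromosomes. The fold over the untreated library reached 364.62 at 12 h and 342.86 at 1 h at the outermost site, the 99.9th and 99.8th percentile of its list. Its median was 94.5 over the 8 Tsc22d3 sites at 12 h and 73.0 over the 9 at 1 h. The 1 h set includes the site not listed at 12 h, whose fold was 11.37, so the medians cover unlike sets. They were 41.6 at 12 h and 40.2 at 1 h when untreated tags below the genome-wide expectation were raised to it. Both treated lists were called against this untreated library at a fold of at least 6, so a fold above that minimum was a condition of being listed.

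Compared with other genes, Tsc22d3 stood high by number of sites and by summed tags. At 12 h its 8 sites within 100 kb were the highest number of any protein-coding gene, a number shared by 7 genes in all, Prps1 with the same sites among them. At 1 h it had 9 sites, and 12 genes, itself included, had that many or more. Its summed normalised tags were 476 at 12 h and 496 at 1 h, ranking 7 at 12 h and 23 at 1 h among the 21887 genes. Genes with the same sites in reach share ranks, and Prps1 ties with it here.

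**Figure D4:**
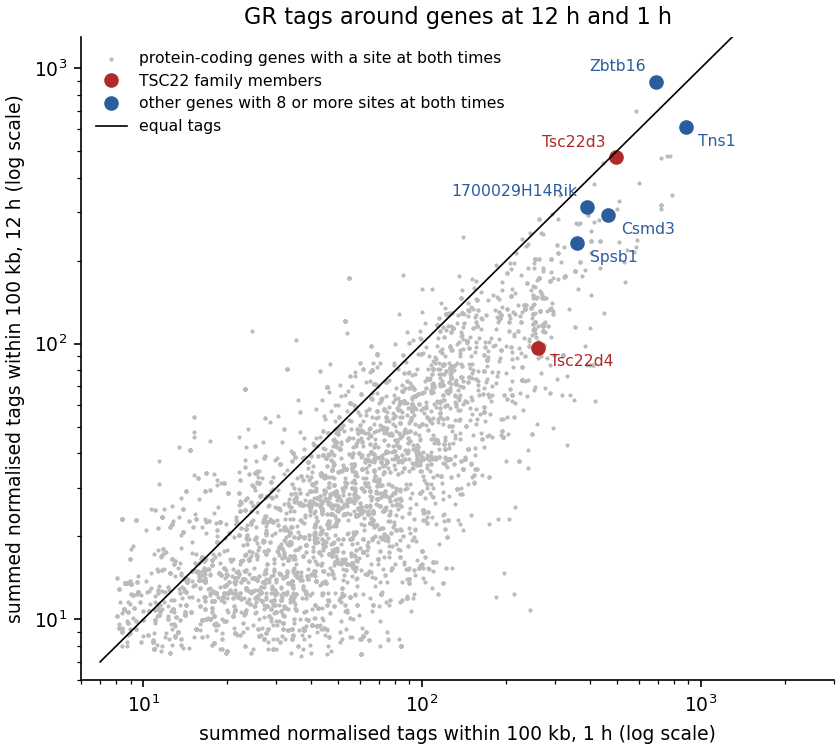
Summed normalised tags within 100 kb of each protein-coding gene with a site at both times, at 12 h (y axis, log scale) against 1 h (x axis, log scale), with 1 point per gene and a line of equal tags. Tsc22d3 (476 at 12 h, 496 at 1 h) lies close to the line, and Tsc22d4 (96.7 at 12 h, 260 at 1 h) lies below it; red marks these members and blue the other genes with 8 or more sites at both times, apart from Prps1, whose point is that of Tsc22d3.

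The genes most like Tsc22d3 were sought among those with at least 8 sites at both times, by the distance between their log2 summed tags over the 2 treated libraries. Besides Tsc22d3 and Prps1, 5 genes met that minimum and are all named. The nearest was 1700029H14Rik at a distance of 0.69, with summed tags of 314 at 12 h and 392 at 1 h. Csmd3, at 0.71, had 292 at 12 h and 466 at 1 h, and Tns1, the gene of a protein of focal adhesions, at 0.91, had 610 at 12 h and 883 at 1 h. Zbtb16, at 1.03, had 891 at 12 h and 692 at 1 h, and Spsb1, at 1.14, had 231 at 12 h and 361 at 1 h. The measure rests on 2 libraries. Of these only Zbtb16, which encodes a zinc finger transcription factor, had more summed tags at 12 h than at 1 h.

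Among a list of 24 established glucocorticoid target genes that includes it, Tsc22d3 had the most sites at 1 h. At 12 h it shared the first place with Zbtb16, also on the list, at 8 sites each. Its summed tags were the second highest of the list at 12 h and the third highest at 1 h. Of these targets 17 (70.8%) had a site within 100 kb at 12 h and 21 (87.5%) at 1 h, beside 22.3% of all protein-coding genes at 12 h and 37.4% at 1 h.

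Tsc22d4 had a single strong site within 100 kb, 74.1 kb from its span and inside the span of Agfg2 (chr5:137671768-137672050). The site held 1.64 normalised tags in untreated cells, 260.2 at 1 h and 96.7 at 12 h. It ranked 21 of 5638 at 1 h and 101 of 2883 at 12 h, and the log2 ratio of 12 h over 1 h was -1.43 (-1.54 to -1.32), or 0.372-fold. Of all paired sites 24.5% were at least 2-fold lower at 12 h, and this site stood at the 10.5th percentile of ratios. It was higher than any Tsc22d3 site at 1 h, while at 12 h it lay below the strongest of them. Since Agfg2, which encodes a protein with an ArfGAP domain, holds the site, its link to Tsc22d4 rests on distance alone. Another gene, Nyap1, lies between the site and Tsc22d4. Nyap1 and further genes, such as Tfr2 and Irs3, have the same site within 100 kb.

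Tsc22d1 and Tsc22d2 had no site in reach at any time. For Tsc22d2 (chromosome 3, 58414702 to 58466787) the limit of 100 kb decided this, since a site at chr3:58311378-58311660 lay 103 kb from the span. This site held 15.7 normalised tags at 12 h and 18.9 at 1 h, with a fold over the untreated library of 6.2 at 12 h and 8.31 at 1 h, near the minimum of 6. For Tsc22d1 (chromosome 14, 76414961 to 76507765) the nearest site was 265 kb away at 12 h, with 104.5 normalised tags, and 193 kb away at 1 h, with 15.5. Inside the limit, the most distant family site was that of Tsc22d4 at 74.1 kb.

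Genes known to act with the family were taken as a list of 28: upstream factors such as GR itself and FOXO factors, proteins that GILZ binds, and members of the WNK, SGK1 and TGF-beta pathways. A site lay within 100 kb of 11 of these (39.3%) in the 12 h list and of 19 (67.9%) in the 1 h list, beside shares of 22.3% at 12 h and 37.4% at 1 h over all protein-coding genes. The strongest 1 h site was paired for 11 of them, and by the interval rule 2 of these sites were higher at 12 h, 7 were lower and 2 had an interval that held 0, beside 11.5% higher and 61.8% lower over all paired sites. These sites were picked by their 1 h tags, by which the ratio divides. The higher ones, named with their values known, were those of Nfkb1, the gene of an NF-kappaB subunit, with 40.9 normalised tags at 12 h and 31.1 at 1 h, and of Scnn1a, the gene of an epithelial sodium channel subunit, with 13.5 at 12 h and 8.61 at 1 h. Nr3c1, the gene of GR, had none at either time, and neither did Foxo1 and Foxo4, which encode other FOXO factors; these 3 genes are named here with their counts known.

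The partner gene with the strongest 1 h site was Sgk1, which encodes the serum- and glucocorticoid-regulated kinase. That site, 96.3 kb away, held 187.5 normalised tags at 12 h and 243.2 at 1 h (a log2 ratio of -0.37, -0.47 to -0.28). Nedd4l, the gene of a ubiquitin ligase that SGK1 phosphorylates, held 26.3 at 12 h and 94.0 at 1 h inside its span (-1.84, -2.04 to -1.63). Near Tgfb1, the gene of the ligand TGF-beta 1, the site held 53.7 at 12 h and 91.1 at 1 h (-0.76, -0.92 to -0.60), although it lay 76.4 kb away and nearer to Axl. The Nrbp2 site held 57.1 at 12 h and 69.0 at 1 h (-0.27, -0.44 to -0.11) and was nearer to Eppk1.

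Foxo3, the gene of a forkhead factor known to activate the GILZ gene, had 4 sites at each time. Its strongest 1 h site, inside the span (chr10:42231330-42231612), held 52.5 normalised tags at 12 h and 57.6 at 1 h (-0.14, -0.31 to 0.04), and another of its sites held 68.1 at 12 h. The strongest 1 h site of Mdm2, the gene of a ubiquitin ligase that acts on p53, was 19.0 kb away and held 20.5 at 12 h and 39.0 at 1 h (-0.93, -1.19 to -0.68), nearer to Cpm.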

How the data were processed

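Of 4 samples in the labels, 3 have a peak list; an input sample was not analysed here. The submitters' processing notes name bcl2fastq 2.17, Bowtie2 2.2.6, HOMER and the build mm10. Peaks were called per library with findPeaks (factor style), per the file headers. The limits set there were a false discovery rate of 0.001, 75 tags, a Poisson p-value of 1.00e-04, and a fold of 6 both over control and over the local 10 kb. The control was the untreated ChIP library for both treated lists and an input for the untreated list, per the file headers. The header marks that input NT, as it does the untreated ChIP library, but the input sample is labelled with 1 h of corticosterone. The deposited normalised tag count is a signal per 10000000 tags. The deposited total tag counts of treated lists were scaled by the authors to the untreated library, and scaling them back gave whole tags at 100% of peaks (within 0.1). The untreated list's tag count was deposited unscaled. Control tags were deposited as a signal with 0.5 as the smallest value. Deposited folds over control or local region are ratios from the caller, and the deposited focus ratio is a fraction. The deposited score and p-value per peak were not used.

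Sites were paired by overlap of at least 1 bp. Analysis used Python 3.11.15, numpy 2.4.6, pandas 2.3.3, scipy 1.17.1 and matplotlib 3.10.9. Pairing, intervals and gene counts were tested on simulated data. Genes and promoter sequences came from RefSeq tables of GRCm38.p6, in which each of the 4 members matched and promoter windows were given for 2; peak sequences were not used here. All members and sites are named, with up to 6 genes of the partner list by their strongest 1 h site and the 5 genes most like Tsc22d3. Alternatives varied the distance, threshold, overlap and scaling. The members and lists were chosen with earlier results of these data known.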

Additional observations from a re-analysis of the deposited data

How the results depend on the processing

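No paired analysis was possible because each condition has 1 library, and for the same reason no replicate could be left out. Over 50 recomputed values, 26 stayed within their limits, 23 moved and 1 was reversed. The moved values include sums per kb of window, which are in another unit, and ratios after centring, which shifts every ratio by the same amount. Within 25 kb the family had 5 sites at 12 h and 6 at 1 h, with 5 listed at both times, and within 10 kb 2 at 12 h and 3 at 1 h. Summed Tsc22d3 tags within 25 kb were 213 at 12 h and 225 at 1 h, and those within 100 kb, per kb of window, were 1576 at 12 h and 1757 at 1 h. Partner genes with a site within 25 kb numbered 7 at 12 h and 11 at 1 h. No share of all protein-coding genes at that distance is given here, so these counts have no background. The summed Tsc22d3 log2 ratio, -0.03, was -0.13 per base and 0.47 when centred on the median of all paired sites; the Tsc22d4 ratio was -0.93 when centred. Centring turned the ratio at the Tsc22d3 site 28.0 kb past the gene end to 0.27, a change set by the shift of 0.49 that centring applies. Median folds over the untreated library fell to 41.6 at 12 h and 40.2 at 1 h with untreated tags raised to the expectation. Counts of sites at 2 or more times the tag threshold, and pairing by larger overlap or by centres within 100 bp, stayed within 1.5 times. The cluster limit and its alternative of 20 kb were chosen after seeing the data. Depth limits the weakest sites most: the unpaired one rests on 91 raw tags.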
